A study of Caenorhabditis elegans with 91 samples.

Results

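The 7 genes described here are asah-1, ZK1010.5, C18D4.6, kal-1, W03C9.6, C46G7.5 and F32B5.3 of Caenorhabditis elegans, of 21965 genes in the small RNA tables. They were taken by name and had been selected on their small RNA counts: those in carriers of a neuronal rde-4 array called pigEx9, and in descendants that had lost it, lay apart from those of rde-4 mutant replicates 4 to 8. That contrast therefore describes the genes and gives no test of them. All other groups of the series were not used to choose them, and carry the tests. The whole-animal test of F3 descendants of a transgene called pigSi3 has rde-4 replicates 4 to 8 in its reference. So does any fit against every mutant library of that temperature. Such fits are not fully independent of the choice.

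RDE-4 is a double-stranded RNA binding protein that helps Dicer cut long double-stranded RNA into small interfering RNAs. These primary small RNAs lead RNA-dependent RNA polymerases to copy target mRNAs into many secondary small RNAs, which Argonaute proteins use to silence genes, in some cases over several generations. Of the 7 genes, asah-1 encodes an acid ceramidase, a lysosomal enzyme that splits ceramide, and kal-1 encodes an anosmin-like extracellular protein that acts with heparan sulfate in the branching and movement of neurons and other cells. The other five carry only sequence names in the tables, and no role is given to them here.

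The array pigEx9 is extrachromosomal, holds Psng-1::rde-4:SL2:yfp with the muscle marker Pmyo-3::Mcherry, and so drives rde-4 from the neuronal sng-1 promoter in rde-4(ne299) mutants. Its carriers (P0) gave 6 whole-animal small RNA libraries. F1 and F3 animals, rde-4(ne299) mutants descended from carriers, gave 2 and 3 libraries, after F1 replicate 3 with 1792 gene counts was set aside. The other groups set against rde-4, of 3 whole-animal libraries each, were P0, F1 and F3 of a second array, pigEx10 (Prgef-1::rde-4:SL2:yfp, from another neuronal promoter, with the coelomocyte marker Punc-122::gfp), carriers of the integrated single-copy transgene pigSi3 (Psng-1::rde-4:SL2:yfp beside the cb-unc-119(+) marker), F3 mutants descended from pigSi3 heterozygotes, and the wild-type strain N2 at 20 and 25 °C. The rde-4(ne299) mutant itself gave 11 libraries at 20 °C and 3 at 25 °C. Isolated neurons (small RNA, 2 libraries a group, and mRNA, 4 a group) came from WT, pigSi3 and rde-4 animals that all carry the neuronal nuclear marker otIs356[rab-3p(prom1)::2xNLS::TagRFP]. Dissected gonads came from pigSi3, pigSi3 F3, sid-1(qt9);rde-4, pigSi3 with sid-1(qt9) and rde-4, and rde-4 animals, with 2 small RNA libraries a group (3 for rde-4) and 3 mRNA libraries a group. All were one-day adults. Whether replicates were separate cultures is not in the labels, so a p-value reflects variation among libraries that could be technical.

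Gene counts per whole-animal library, without F1 replicate 3, ran up to 31077625, and the shallowest was pigEx9 F3 replicate 2 with 918317. The pigEx9 libraries fall into a first record set (P0 replicates 1 to 3, F1, F3 and rde-4 replicates 4 and 5) and a second (P0 replicates 4 to 6 and rde-4 replicates 6 to 8), which the labels do not call batches and which was a term in the fit. Reads of rde-4 itself checked the strains: 3242 to 8486 CPM (counts scaled to library size) in pigEx9 P0, 267 and 260 in F1, 131 to 170 in F3, and 75.4 to 112 in rde-4 replicates 4 to 8. In neuron mRNA, rde-4 stood at 287 to 319 CPM in pigSi3, 9.02 to 26.6 in WT and 1.97 to 3.83 in rde-4. Levels are CPM on a common trimmed-mean (TMM) scale for each assay, tissue and, in whole animals, temperature. A difference is a log2 ratio over rde-4 from edgeR, with its standard error (SE). The counts per gene carry no length, class or strand of the small RNAs, and in whole animals fewer cells with small RNAs and fewer small RNAs per cell cannot be told apart.

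In pigEx9 animals 5 genes had fewer small RNAs than rde-4 and 2 had more, and the direction was the same in carriers, F1 and F3 for each gene. For asah-1 the level ran over 1.87, 4.17 and 5.38 CPM (lowest, median, highest) in P0, was 2.95 and 2.57 CPM in F1, and 10.96, 10.72 and 6.49 CPM in F3, against 55.2, 23.8, 24.8, 30.5 and 10.5 CPM in rde-4 replicates 4 to 8. All carriers and F1 libraries lay below all 5 mutants, and F3 met the lowest of them, replicate 8. The log2 difference was -3.08 (SE 0.38) in P0, -3.66 (SE 0.60) in F1 and -1.93 (SE 0.49) in F3.

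For kal-1 the level was 29.9, 38.7 and 56.7 CPM (lowest, median, highest) in P0, 34.0 and 36.1 CPM in F1, and 68.3, 45.8 and 72.6 CPM in F3, against 153, 117, 82.5, 85.3 and 100 CPM in rde-4. No library of the 3 pigEx9 groups reached the mutants. The log2 difference was -1.42 (SE 0.19) in P0, -1.65 (SE 0.29) in F1 and -0.76 (SE 0.25) in F3. In both asah-1 and kal-1 the F3 mean was thus nearer to the mutant than the F1 mean, a step that was not tested because these libraries chose the genes.

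ZK1010.5 lay below the mutant in P0, F1 and F3. It had 0.63, 0.80 and 1.02 CPM (lowest, median, highest) in P0, 0.51 and 1.22 CPM in F1, and 0.58, 0 and 1.07 CPM in F3, against 14.2, 12.54, 3.62, 7.61 and 2.51 CPM in rde-4. The F3 library at 0 is the shallow one, where 3 counts are worth 2.92 CPM, so that its 0 does not set it below rde-4 replicate 8. The groups did not overlap, and the log2 difference was -3.69 (SE 0.40) in P0, -3.51 (SE 0.55) in F1 and -3.80 (SE 0.52) in F3.

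C18D4.6, the most abundant of the 5 lower genes, had 124, 164 and 209 CPM (lowest, median, highest) in P0, 129 and 134 CPM in F1, and 141, 173 and 190 CPM in F3, against 655, 527, 436, 489 and 318 CPM in rde-4. Every pigEx9 library lay below every mutant one. The log2 difference was -1.59 (SE 0.19) in P0, -1.84 (SE 0.30) in F1 and -1.46 (SE 0.26) in F3.

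F32B5.3 was the gene whose value rested most on the record sets. It had 2.26, 2.69 and 3.67 CPM in P0 replicates 1 to 3, 4.36 and 5.26 CPM in F1 and 4.80, 2.92 and 4.43 CPM in F3, against 11.3 and 14.2 CPM in rde-4 replicates 4 and 5 of the same set. In the second set, P0 replicates 4 to 6 had 0.82, 0.91 and 1.02 CPM, against 2.33, 2.30 and 2.74 CPM in rde-4 replicates 6 to 8. The groups were apart within each set and overlapped when the sets were pooled. The log2 difference with the set as a term was -1.96 (SE 0.22) in P0, -1.29 (SE 0.28) in F1 and -1.42 (SE 0.26) in F3, and without that term it was -0.45 in F1 and -0.60 in F3.

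**Figure D1:**
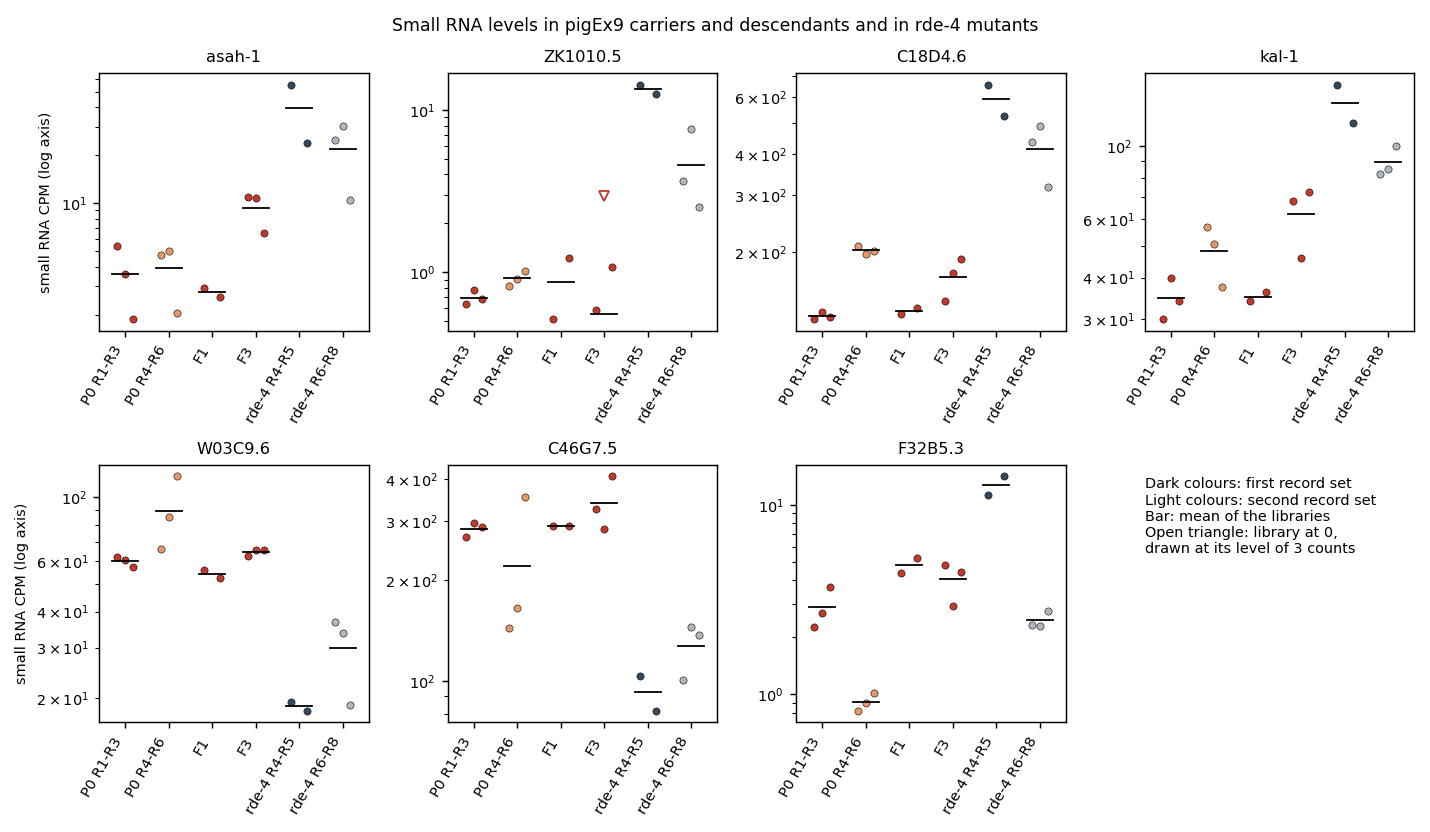
Small RNA level in CPM (log axis) of the 7 genes in each pigEx9 P0, F1 and F3 library and in rde-4 replicates 4 to 8; points are libraries, bars are group means, and dark and light colours mark the first and second record set. asah-1, ZK1010.5, C18D4.6 and kal-1 lie lower in the pigEx9 groups, W03C9.6 and C46G7.5 higher, and F32B5.3 separates only within a record set.

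Both genes with more small RNAs kept a level in F3 like that of carriers. C46G7.5 had 144, 278 and 352 CPM (lowest, median, highest) in P0, 289 and 289 CPM in F1, and 325, 284 and 407 CPM in F3, against 103.5, 81.7, 101, 144 and 138 CPM in rde-4. F1 and F3 lay above all mutants, while P0 replicate 4, at 144 CPM, met rde-4 replicate 7. The log2 difference was 1.14 (SE 0.22) in P0, 1.32 (SE 0.32) in F1 and 1.58 (SE 0.30) in F3.

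W03C9.6 had 57.1, 63.99 and 118 CPM (lowest, median, highest) in P0, 55.6 and 52.5 CPM in F1, and 62.2, 65.3 and 65.3 CPM in F3, against 19.4, 18.2, 36.7, 33.8 and 18.95 CPM in rde-4. The groups did not overlap, and the log2 difference was 1.61 (SE 0.16) in P0, 1.47 (SE 0.22) in F1 and 1.74 (SE 0.21) in F3. In the annotation of assembly WBcel235 this gene overlaps the noncoding RNA gene W03C9.11 and the tRNA gene W03C9.t1, so its reads may be shared, and the sources used here do not say whether counting used strand. The other 6 overlap no annotated gene there.

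Over all 11121 genes tested, 6.15% were called at an adjusted p under 0.05 in P0, 0.108% (12 genes) in F1 and 0.027% (3 genes) in F3. The transgene's own gene, rde-4, was among the 12 in F1. Of the genes called, 5 of 12 in F1 (asah-1, ZK1010.5, C18D4.6, kal-1 and W03C9.6) and 2 of 3 in F3 (ZK1010.5 and W03C9.6) are among the 7, which is what the choice used. The median log2 difference of all genes was 0.00362 in P0, -0.0132 in F1 and -0.0125 in F3. These small counts moved with the settings: they were 273 in F1 and 180 in F3 in the first record set alone, and 0 in both with no set term. In F1 there were 0 without F1 replicate 1, 1 without F1 replicate 2 and 4 without rde-4 replicate 4. In F3 there was 1 without F3 replicate 1 or rde-4 replicate 5, and there were 5 without rde-4 replicate 8.

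The 6 rde-4 libraries outside this contrast, replicates 1 to 3 and 9 to 11, widen the mutant ranges. Across all 11 mutants, ZK1010.5 ran from 2.51 to 14.2 CPM, C18D4.6 from 318 to 860 CPM, kal-1 from 82.5 to 206 CPM and C46G7.5 from 81.7 to 144 CPM. All 5 F1 and F3 libraries lay outside these ranges for C18D4.6, kal-1 and C46G7.5, and so did their values for ZK1010.5, whose library at 0 is too shallow to be placed below the lowest mutant. With values taken as they stand, 0.495% of the 11121 genes (55) were apart in this way. Nothing is read from that, since the F1 and F3 libraries and mutant replicates 4 to 8 chose the genes. W03C9.6 overlapped: it stood at 139, 105 and 101 CPM in replicates 9 to 11, above every F1 and F3 library, and at 26.0, 20.4 and 15.2 CPM in replicates 1 to 3. Against all 11 mutants its log2 difference was 0.61 in P0, 0.16 in F1 and 0.41 in F3. asah-1 met the mutants through rde-4 replicate 8, and F32B5.3, at 2.30 to 14.2 CPM in the mutants, overlapped them throughout.

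N2 was then set against rde-4 replicates 1 to 3 at 20 °C, which asks whether these small RNAs depend on RDE-4. Of the 7 genes, 5 passed (edgeR adjusted p under 0.05), 2 higher and 3 lower, each in the direction seen in pigEx9 animals. The background was high, since 31.4% of 12800 genes were called, 14.5% higher and 16.9% lower, and 5 of the 7 were apart in range, against 46.1% of all genes. With library totals in place of TMM the split over all genes was 618 higher and 3886 lower, against 1857 and 2159, and the same 5 of the 7 were called, 2 higher and 3 lower. The median log2 difference was -0.59 over the 7 and 0.00152 over all genes.

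C46G7.5 had 650, 522 and 360 CPM in N2, against 96.3, 84.4 and 96.1 CPM in rde-4, a rise of 2.48 on the log2 scale (SE 0.19, adjusted p = 5.35e-06, edgeR). W03C9.6 had 111, 49.5 and 39.2 CPM in N2, against 26.0, 20.4 and 15.2 CPM in rde-4, at log2 1.71 (SE 0.40, adjusted p = 0.0123). In both genes all N2 libraries were above all mutants of this set. Against all 11 mutants the W03C9.6 value was 0.45 (adjusted p = 0.626), and the call was lost.

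ZK1010.5 had 1.83, 0.89 and 2.26 CPM in N2, against 10.3, 10.5 and 9.70 CPM in rde-4, and fell by 2.60 on the log2 scale (SE 0.26, adjusted p = 5.73e-05). kal-1 had 66.6, 46.9 and 76.9 CPM in N2, against 162, 148 and 135 CPM in rde-4, at log2 -1.22 (SE 0.16, adjusted p = 0.00035). C18D4.6 had 327.9, 354.7 and 381.0 CPM in N2, against 594, 505 and 510 CPM in rde-4, at log2 -0.59 (SE 0.12, adjusted p = 0.00537). In all 3 genes N2 lay below the mutant in every library. The N2 libraries overlapped the pigEx9 descendants in ZK1010.5 and kal-1, while C18D4.6 stood higher in N2 than in any of them.

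The remaining genes did not follow. asah-1, far below the mutant in pigEx9 animals, had 46.2, 59.7 and 32.5 CPM in N2, against 81.6, 19.3 and 24.9 CPM in rde-4 (log2 0.16, SE 0.66, adjusted p = 0.875). F32B5.3 had 3.13, 0.50 and 5.05 CPM in N2, against 5.46, 3.85 and 8.08 CPM in rde-4 (log2 -1.02, SE 0.57, adjusted p = 0.201). In both the groups overlapped. Small RNAs of germline marker genes were also higher in N2 (9 of 12 called, summed level 2839 to 3050 CPM in N2, against 1576 to 2534 CPM in the 11 mutants) and those of neuronal markers lower (5 of 11, 123 to 140 CPM in N2, against 211 to 523 CPM), and their part in these differences was not tested.

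At 25 °C, 4 of the 7 genes passed in N2 against rde-4, where 16.5% of 10524 genes did. C46G7.5 had 1467, 1158 and 613 CPM in N2, against 150, 118 and 107 CPM in rde-4 (log2 3.12, SE 0.37, adjusted p = 0.0013). kal-1 had 82.4, 49.4 and 85.0 CPM in N2, against 578, 415 and 177 CPM in rde-4 (log2 -2.43, SE 0.44, adjusted p = 0.00926). These 2 genes had the same direction as at 20 °C, and their groups did not overlap.

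ZK1010.5 had 1.61, 1.03 and 1.76 CPM in N2 at 25 °C, against 5.13, 9.21 and 2.98 CPM in rde-4 (log2 -1.998, SE 0.48, adjusted p = 0.0249). W03C9.6 had 446, 297 and 222 CPM in N2, against 151, 98.6 and 43.2 CPM in rde-4 (log2 1.73, SE 0.46, adjusted p = 0.0378). The libraries did not overlap in either gene, and ranges were apart for 5 of the 7 and for 36.9% of all genes. Both calls were fragile: each was lost without N2 replicate 2, N2 replicate 3 or rde-4 replicate 2, and that of W03C9.6 also without N2 replicate 1. C18D4.6 had 639, 814 and 850 CPM in N2, against 1938, 1484 and 946 CPM in rde-4, below the mutant in every library without passing (log2 -0.92, SE 0.31, adjusted p = 0.0804). It passed with DESeq2 (adjusted p = 0.016), with library totals (0.015) and without rde-4 replicate 3 (0.0147). Neither asah-1 (adjusted p = 0.617) nor F32B5.3 (adjusted p = 0.465, and 0.0215 without N2 replicate 1) passed, and asah-1 spread over 47.6 to 934 CPM within rde-4 alone.

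**Figure D2:**
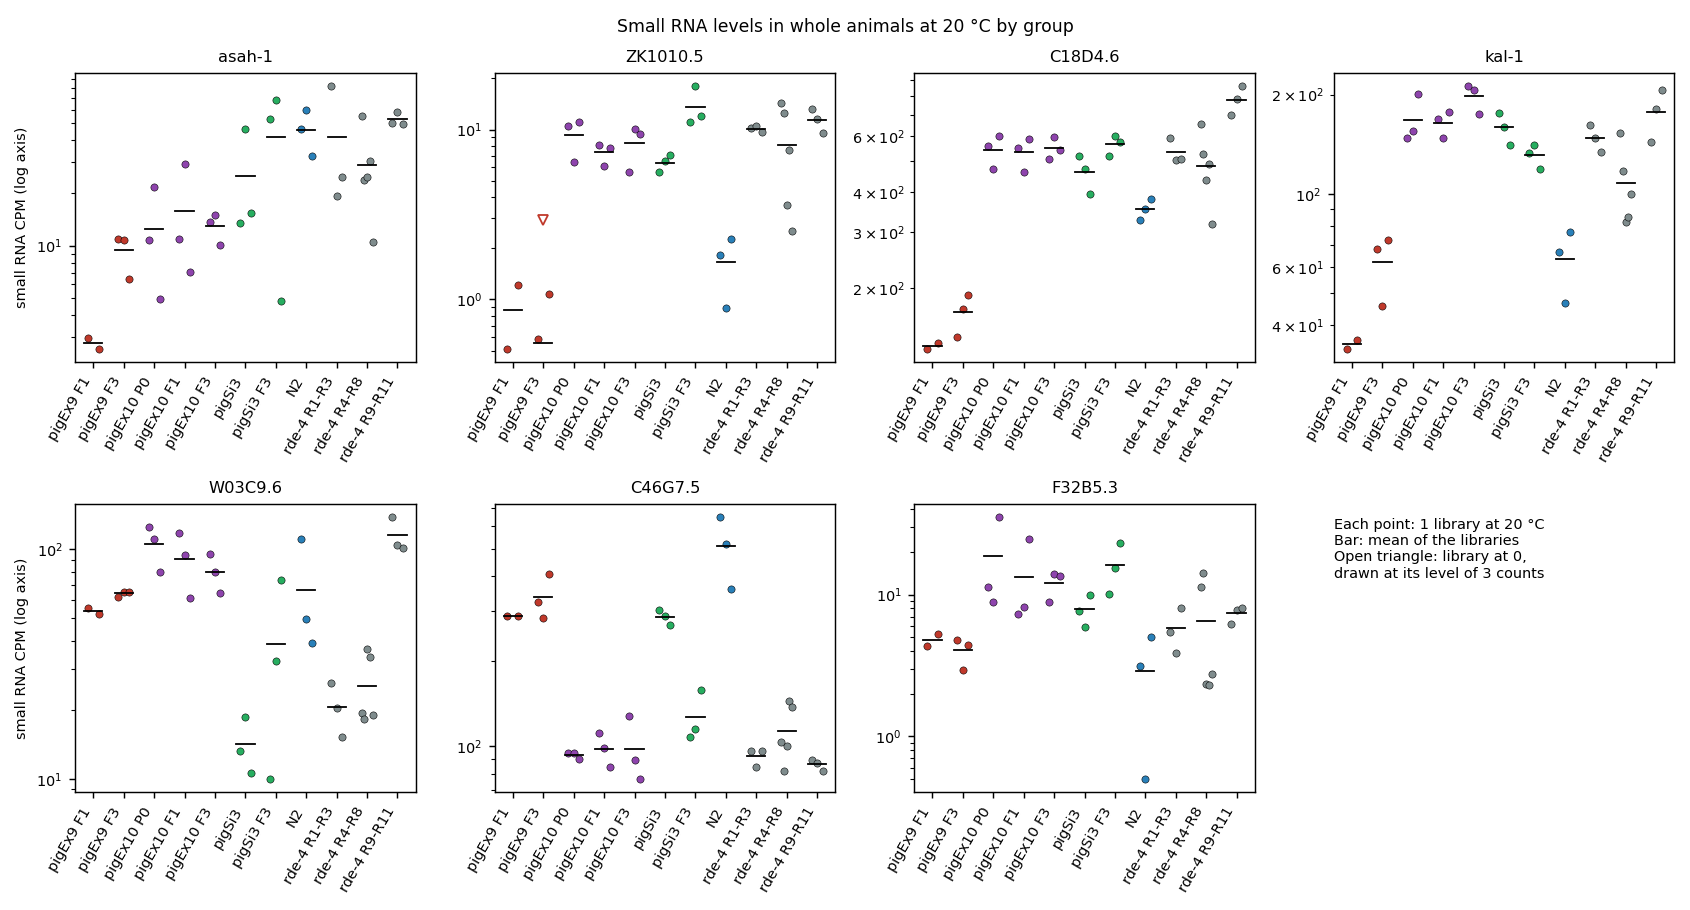
Small RNA level in CPM (log axis) of the 7 genes in whole animals at 20 °C; each point is a library, bars are group means, and the rde-4 mutant stands at the right in its 3 groups of records. C46G7.5 is high in pigEx9 F1 and F3, pigSi3 and N2, and rde-4 replicates 9 to 11 stand at 101 to 139 CPM in W03C9.6.

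The integrated transgene pigSi3, driven by the same sng-1 promoter, shared 1 of the 7 changes by edgeR and 2 by DESeq2, where edgeR called 5.86% of all genes and DESeq2 called 1037 of 12800. C46G7.5 had 304, 289 and 268 CPM in pigSi3, against 96.3, 84.4 and 96.1 CPM in rde-4 (log2 1.62, SE 0.18, adjusted p = 0.000509), a level like that of pigEx9 F1. ZK1010.5 had 5.61, 6.49 and 7.07 CPM in pigSi3, against 10.3, 10.5 and 9.70 CPM in rde-4, apart in range but not called by edgeR (log2 -0.68, SE 0.23, adjusted p = 0.129), while DESeq2 called it (adjusted p = 0.0328). Ranges were apart for 2 of the 7 and for 26.8% of all genes, and the other 5 overlapped, with adjusted p of 0.358 to 0.823. For kal-1 the levels were 176, 160 and 141 CPM in pigSi3, against 162, 148 and 135 CPM in rde-4. W03C9.6 had 13.2, 18.6 and 10.6 CPM in pigSi3, against 26.0, 20.4 and 15.2 CPM in rde-4, so that it did not show the high level of pigEx9 animals.

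In pigSi3 F3, mutants descended from heterozygotes, none of the 7 was called against the 11 mutants by edgeR or DESeq2 (1 at an unadjusted p under 0.05, edgeR), and 0.0172% of 11611 genes (2) were called by edgeR. At the unadjusted threshold 1446 of the 11611 genes passed. The mutant replicates that helped choose the genes are among the 11, so this comparison is not fully independent of the choice. C46G7.5, high in pigSi3 carriers, had 108, 115 and 158 CPM in F3, overlapping the 81.7 to 144 CPM of rde-4 (log2 0.34, SE 0.18, adjusted p = 0.438). ZK1010.5 had 11.03, 17.95 and 11.99 CPM and kal-1 had 133, 141 and 119 CPM, so that F3 replicate 2 stood above all mutants in ZK1010.5 and kal-1 stayed within their range. asah-1 varied between F3 libraries, with 52.9, 67.8 and 4.82 CPM, and W03C9.6 likewise, with 9.96, 32.7 and 73.2 CPM. F32B5.3 had 10.1, 15.5 and 23.2 CPM in F3, against 2.30 to 14.2 CPM in rde-4 (log2 1.32, SE 0.42, adjusted p = 0.243), the other way from pigEx9 F3.

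The second array, pigEx10, gave no call among the 7 in P0, F1 or F3 against rde-4 replicates 9 to 11, where 1.8%, 0.355% and 0.355% of 11252 genes were called by edgeR. At an unadjusted p under 0.05 there were 3 in each generation, beside 1291, 656 and 686 of the 11252 genes in P0, F1 and F3. Reads of rde-4 rose in its carriers too, at 2684, 2757 and 4302 CPM (lowest to highest) in pigEx10 P0, against 212, 213 and 257 CPM in its mutants (adjusted p = 4.54e-07). asah-1 was the gene nearest to the pigEx9 pattern. It had 10.8, 21.7 and 4.97 CPM in P0, 10.9, 29.2 and 7.05 CPM in F1, and 13.6, 14.9 and 10.1 CPM in F3, against 50.4, 58.0 and 49.97 CPM in rde-4. All 9 pigEx10 libraries lay below the 3 mutants, at log2 -2.03 in P0 (SE 0.53, adjusted p = 0.108), -1.71 in F1 (SE 0.52, adjusted p = 0.388) and -2.05 in F3 (SE 0.54, adjusted p = 0.276). Ranges were apart for 20.1%, 10.4% and 11.4% of all genes in these comparisons, and for 4, 3 and 4 of the 7. DESeq2 called asah-1 in all 3 generations, with adjusted p of 0.0014 in P0, 0.0284 in F1 and 0.00406 in F3, and edgeR called it in P0 without P0 replicate 2 (adjusted p = 0.046). Against the other mutants the pigEx10 libraries were not apart, since rde-4 replicates 1 to 3 ran from 19.3 to 81.6 CPM and replicates 4 to 8 from 10.5 to 55.2 CPM.

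C18D4.6 had 559, 473 and 600 CPM in pigEx10 P0, 551, 464 and 590 CPM in F1 and 510, 597 and 544 CPM in F3, against 698, 783 and 860 CPM in rde-4. It lay below those mutants in every library at log2 -0.51 (SE 0.12, adjusted p = 0.0592), -0.54 (SE 0.12, adjusted p = 0.106) and -0.51 (SE 0.12, adjusted p = 0.16), but within the range of rde-4 replicates 1 to 8. DESeq2 called it in all 3 generations (adjusted p = 0.00555 in P0, 0.0047 in F1 and 0.0119 in F3), as did edgeR with no count filter (0.01, 0.0247 and 0.0407), and in P0 edgeR also called it without P0 replicate 3 (0.032) or rde-4 replicate 9 (0.045). C46G7.5, higher in pigEx9 descendants, had 76.6 to 128 CPM over the 9 pigEx10 libraries, against 89.2, 87.6 and 82.1 CPM in rde-4. kal-1 had 147 to 212 CPM in pigEx10, against 144, 181 and 206 CPM in rde-4, and ZK1010.5 had 5.61 to 11.1 CPM, against 13.1, 11.5 and 9.59 CPM. W03C9.6 had 61.4 to 125 CPM in pigEx10 and 139, 105 and 101 CPM in its mutants, so the high level was present in mutants that had no array. F32B5.3 spread over 7.33 to 35.5 CPM, against 6.24, 7.84 and 8.03 CPM in rde-4.

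**Figure D3:**
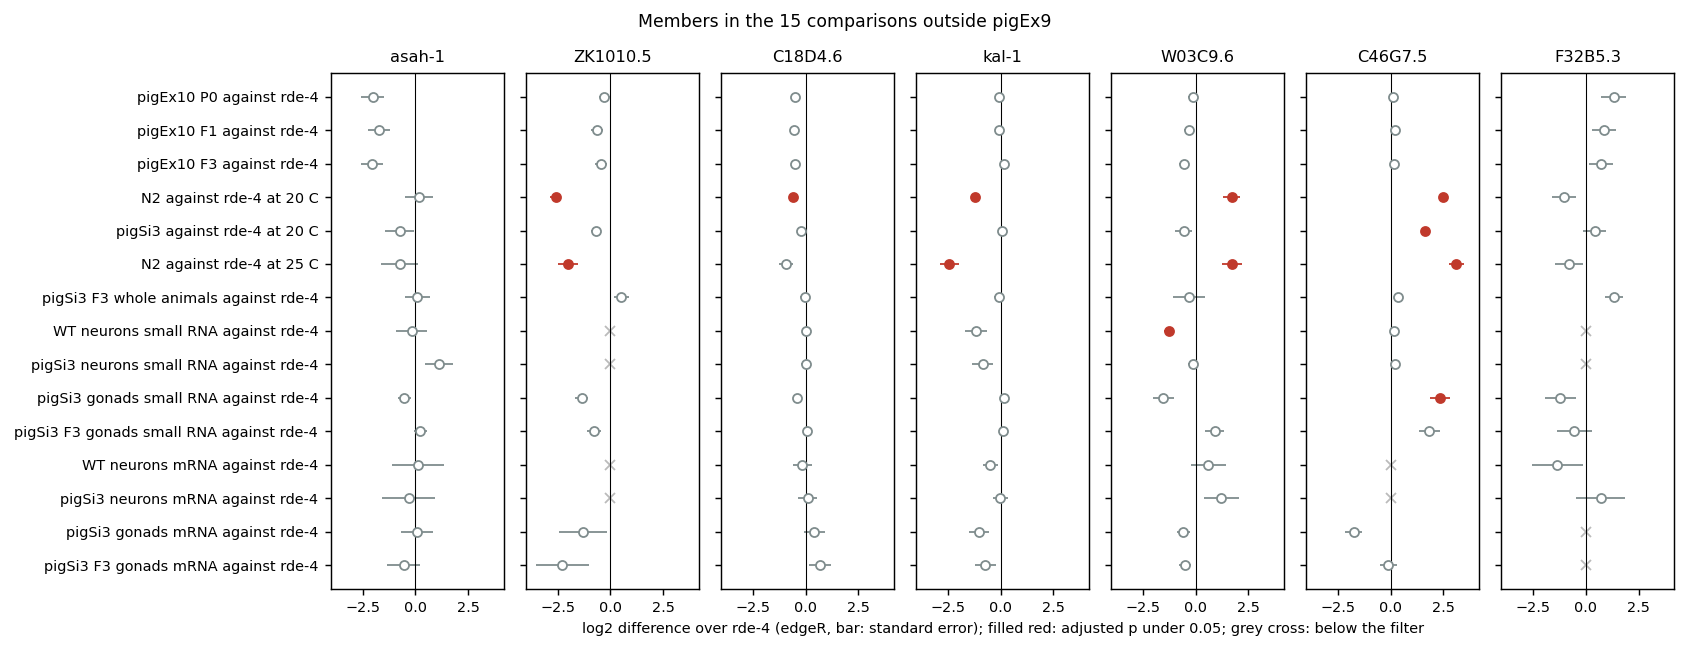
Log2 difference over rde-4 with its SE (horizontal axis) for each of the 7 genes in the 15 comparisons outside pigEx9 (rows). Filled red points passed an adjusted p of 0.05 and grey crosses were below the count filter. The reference of pigSi3 F3 whole animals includes mutant libraries that helped choose the genes. Calls gather in N2 against rde-4 and in C46G7.5, and 12 of the 95 values tested were called.

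In isolated neurons, 5 of the 7 genes passed the count filter, since ZK1010.5 had at most 0.81 CPM and F32B5.3 at most 3.25 CPM in any library. W03C9.6 was the 1 gene called in WT against rde-4, where 3.34% of 7537 genes were. It had 59.3 and 59.4 CPM in WT, against 131 and 158 CPM in rde-4, and fell by 1.28 on the log2 scale (SE 0.23, adjusted p = 0.00258, edgeR). That direction is opposite to whole N2 animals. The call was lost without either WT library (adjusted p = 0.0652 and 0.0555). pigSi3 neurons had 101 and 153 CPM, close to rde-4 (adjusted p = 0.988), and none of the 5 passed there by edgeR or DESeq2 (0 at an unadjusted p under 0.05, edgeR), against 0.955% of all genes by edgeR. At the unadjusted threshold 489 of the 7537 genes passed.

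C46G7.5 was not called in neurons. It had 491 and 515 CPM in WT and 516 and 543 CPM in pigSi3, against 422 and 487 CPM in rde-4 (adjusted p = 0.773 and 0.954), with each mutant library below the WT and pigSi3 ones. The log2 difference was 0.15 (SE 0.17) in WT and 0.22 (SE 0.17) in pigSi3, beside 2.48 in whole N2 animals. Ranges were apart for 3 of the 5 tested members in WT and 2 of 5 in pigSi3, against 46.7% and 33.9% of all genes. C18D4.6 ran over 80.1 to 108 CPM in the 6 neuron libraries, kal-1 had 9.61 and 7.32 CPM in WT and 5.52 and 13.6 CPM in pigSi3, against 13.6 and 25.9 CPM in rde-4, and asah-1 ran over 2.85 to 19.3 CPM. Neuronal marker genes, summed, had 2008 to 2331 CPM of small RNA in WT and 1417 to 2183 CPM in pigSi3, against 726 to 865 CPM in rde-4 neurons, and the part of such a difference between the sorted samples was not tested.

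In dissected gonads C46G7.5 was again the gene that stood out. It had 482 and 448 CPM in pigSi3, against 90.7, 107 and 81.0 CPM in rde-4, and rose by 2.33 on the log2 scale (SE 0.48, adjusted p = 0.0496). The other 6 did not pass, where 1.98% of 11517 genes did, and the call of C46G7.5 was lost when any of the 5 libraries was left out (adjusted p 0.109 to 0.348). Gonads of sid-1(qt9);rde-4 animals, which have no rde-4 transgene, also had 493 and 439 CPM, and those of pigSi3 animals with sid-1(qt9) had 309 and 347 CPM. In pigSi3 F3 the level was 107 CPM in replicate 1 and 543 CPM in replicate 2, at the mutants' highest value of 107 CPM in the one and above both carriers in the other (log2 1.83, SE 0.48, adjusted p = 0.119). None of the 7 was called in F3 gonads by edgeR (2 at an unadjusted p under 0.05), against 0.165% of all genes, and DESeq2 called 1, beside 427 of all genes. At the unadjusted edgeR threshold 2534 of the 11517 genes passed. Without F3 replicate 1, which leaves 1 library in that group, the log2 difference was 2.55 for C46G7.5 and 1.55 for W03C9.6. Replicate 1 is the shallowest gonad library, with 1841973 gene counts, and replicate 2 had 21273074.

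ZK1010.5 had 1.85 and 2.83 CPM in pigSi3 gonads, against 5.87, 6.68 and 5.85 CPM in rde-4, at log2 -1.37 (SE 0.31, adjusted p = 0.0513). In pigSi3 F3 gonads it had 4.39 and 3.31 CPM, at log2 -0.76 (SE 0.34, adjusted p = 0.219). W03C9.6 had 11.5 and 10.4 CPM in pigSi3, against 28.0, 30.0 and 36.2 CPM in rde-4, at log2 -1.53 (SE 0.51, adjusted p = 0.174). Its F3 replicates 1 and 2 had 16.4 and 92.1 CPM. Both genes lay below the mutant in every pigSi3 gonad library without passing, and ranges were apart for 4 of the 7 genes, against 44.4% of all. DESeq2 called both, with adjusted p of 0.0181 for ZK1010.5 and 0.0152 for W03C9.6. The W03C9.6 direction was thus opposite to that in pigEx9 whole animals. kal-1 had 124 and 107 CPM in pigSi3 gonads, against 111, 112 and 89.0 CPM in rde-4, C18D4.6 had 322 and 386 CPM, against 474, 393 and 521 CPM, and asah-1 had 10.1 and 14.4 CPM, against 11.64, 17.2 and 24.2 CPM. Germline markers were present in all these libraries, with a summed mRNA level of 11860 to 13470 CPM in pigSi3 and 11030 to 11480 CPM in rde-4 gonads.

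**Figure D4:**
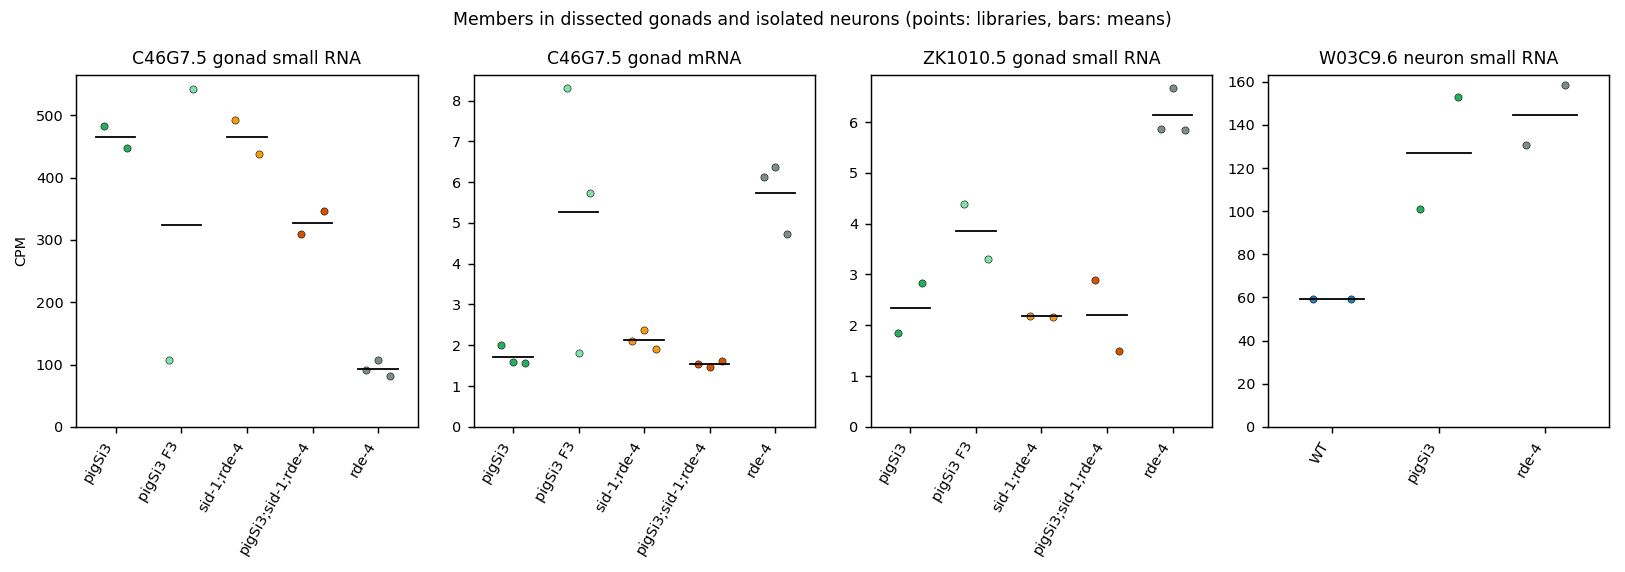
Levels in CPM (linear axis from 0) of C46G7.5 small RNA and mRNA and ZK1010.5 small RNA in gonads, and of W03C9.6 small RNA in isolated neurons; points are libraries and bars are means. C46G7.5 small RNA is at 309 CPM or more in pigSi3 and both sid-1 groups, where its mRNA is at 2.37 CPM or less.

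Messenger RNA of the 7 genes gave no call by edgeR in any of the 4 mRNA comparisons (1 gene at an unadjusted p under 0.05, in pigSi3 gonads), in which 0.433% (WT neurons), 0.0236% (pigSi3 neurons), 0.483% (pigSi3 gonads) and 28% (pigSi3 F3 gonads) of all genes were called. At the unadjusted threshold 2127 and 1118 of 12693 genes passed in the neurons, and 670 and 4046 of 10569 in the gonads, in that order. The lowest of all these adjusted p-values was that of C46G7.5 in pigSi3 gonads. Its mRNA had 1.99, 1.58 and 1.57 CPM in pigSi3, against 6.12, 6.36 and 4.72 CPM in rde-4 (log2 -1.74, SE 0.41, adjusted p = 0.111), lower in every library while its small RNA was higher. DESeq2 called it (adjusted p = 0.0265). The other gonad groups held 2.10, 2.37 and 1.90 CPM in sid-1(qt9);rde-4 and 1.54, 1.47 and 1.62 CPM in pigSi3 with sid-1(qt9). In pigSi3 F3 gonads, mRNA replicates 1 to 3 had 8.30, 1.81 and 5.72 CPM, and small RNA replicates 1 and 2 had 107 and 543 CPM. Whether equal numbers mark the same dissection is not given in the labels.

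Of the other genes, kal-1 and W03C9.6 lay below the mutant in every pigSi3 gonad mRNA library without passing. With C46G7.5, ranges were apart for 3 of the 6 tested, and for 12.1% of all genes. kal-1 had 2.49, 3.70 and 1.39 CPM in pigSi3, against 5.02, 6.54 and 4.39 CPM in rde-4, at log2 -1.02 (SE 0.49, adjusted p = 0.799). W03C9.6 had 4.24, 2.99 and 3.31 CPM, against 4.88, 6.19 and 4.72 CPM (adjusted p = 0.819). ZK1010.5 mRNA varied widely, with 0.12, 7.995 and 9.59 CPM in pigSi3, against 13.8, 2.75 and 27.3 CPM in rde-4. asah-1 and C18D4.6 overlapped between groups, and F32B5.3 was at 0 in all pigSi3, pigSi3 F3 and rde-4 gonad mRNA libraries. The F3 gonad mRNA libraries stood apart as a group, with germline markers summing to 5101 to 6315 CPM, against 11030 to 11480 CPM in rde-4, and the part of this in the 28% called was not tested.

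In neuron mRNA kal-1 was the best measured of the 7, with 15.2, 23.6, 14.7 and 43.8 CPM in WT and 31.5, 30.7, 31.3 and 41.7 CPM in pigSi3, against 32.9, 34.3, 37.8 and 30.7 CPM in rde-4. Neither comparison passed (adjusted p = 0.49 and 0.997). C18D4.6 ran over 5.29 to 16.4 CPM in the 12 libraries, and asah-1, W03C9.6 and F32B5.3 stayed at or below 3.31 CPM. ZK1010.5 and C46G7.5 did not reach the filter, with at most 0.36 CPM each in any of the 12 libraries. They were not tested, and a fall from so low a level could not be seen.

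The 7 genes did not form a single pattern over the 46 whole-animal libraries. Pearson's r of log2(CPM + 1), given as a description since these libraries share depth and culture sets, was 0.87 between C18D4.6 and kal-1, 0.81 between C18D4.6 and asah-1, 0.78 between kal-1 and ZK1010.5, and 0.73 between ZK1010.5 and F32B5.3. C46G7.5 ran against ZK1010.5 (-0.65) and was at 0.42 with W03C9.6. These libraries include those that chose the genes, so r among the 7 in part follows from the choice. They also pool both temperatures. At 25 °C the mean of asah-1 was 230 CPM in N2 and 386 CPM in rde-4 (SD 479 CPM in rde-4), and that of C18D4.6 was 768 and 1456 CPM. These means were above those of the same strains at the lower temperature, with levels scaled separately for each temperature. For asah-1 the rde-4 libraries of the temperatures overlapped, and no difference between temperatures was tested. No r was computed without the choosing libraries or within a temperature. Among 8334 genes with a mean of at least 5 CPM, those most like asah-1 were dlk-1 (0.87), ndx-2 (0.82) and nhr-15 (0.81), and those most like ZK1010.5 were C46G7.3 (0.85), F58E10.7 (0.81) and K08D10.5 (0.79). For C18D4.6 they were F31E9.6 (0.93), Y38H8A.8 (0.92) and F13A7.11 (0.91), and for kal-1 F13A7.11 (0.89), C18D4.6 (0.87) and F31E9.6 (0.85). For W03C9.6 they were Y45F10C.6 (0.88), F07A11.1 (0.86) and Y37E11B.1 (0.85), for C46G7.5 R05G6.5 (0.87), pqn-55 (0.85) and T05G5.4 (0.84), and for F32B5.3 F41H10.12 (0.97), VY10G11R.1 (0.96) and K03H9.3 (0.95).

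Genes that share a pathway with asah-1 or kal-1 gave no call after the loss of pigEx9, by edgeR or DESeq2. Of 21 tested genes of sphingolipid metabolism, none passed in F1 or F3 (1 and 1 at an unadjusted p under 0.05, edgeR), with a median log2 difference of -0.101 in F1 and 0.011 in F3. In P0 sms-2, a sphingomyelin synthase gene, passed, at 284 ± 141 CPM in P0 and 219 ± 90.5 CPM in rde-4 (SD, n = 6 and 5; log2 0.46, adjusted p = 0.021). Of 21 tested genes of heparan sulfate synthesis and FGF signalling, none passed in F1 or F3 (1 and 0 unadjusted). Over all 11121 genes, 794 in F1 and 512 in F3 were at an unadjusted p under 0.05 by edgeR. In P0 the FGF ligand gene let-756 (log2 -1.06, adjusted p = 0.00074) and the heparan sulfate 2-O-sulfotransferase gene hst-2 (log2 -0.81, adjusted p = 0.0127) passed.

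The 37 tested genes of small RNA inheritance gave no call by edgeR in P0, F1 or F3 (3, 0 and 0 unadjusted), and DESeq2 called 1 in P0. Over all 11121 genes the unadjusted edgeR counts were 2123, 794 and 512. The candidate targets of the ERGO-1 pathway, whose small RNAs depend on RDE-4, were listed with earlier results of these data known. Of 15 tested, 13 rose in P0 at a median log2 of 4.22, where 1.84% of all genes were called higher. By edgeR none passed in F1 or F3, where the median was 0.467 and 0.477 (6 and 2 unadjusted), while DESeq2 called 2 and 1 as higher. Their summed level was 4996 to 7563 CPM in P0, 1485 to 1602 CPM in F1 and 1559 to 2032 CPM in F3, against 1456 to 2149 CPM in rde-4 replicates 4 to 8. No tested marker of neurons, germline, oocytes, sperm, intestine, muscle or hypodermis passed in F1 or F3 by either tool (2 in F1 and 0 in F3 unadjusted, edgeR). In P0, where edgeR called 6.15% of all genes, the muscle myosin gene unc-54 rose (log2 3.04, adjusted p = 0.00623). It was 1 called of 2 muscle markers above the filter, whose median log2 was 1.54. All 6 muscle markers summed to 207 to 372 CPM in P0, against 91.1 to 138 CPM in rde-4. Of 10 tested neuronal markers 1 was called, the SNAP-25 gene ric-4, which fell (log2 -1.09, adjusted p = 0.0161, edgeR). The median log2 of the 10 was 0.0668. The part of these in the P0 values of the 7 genes was not tested.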

How the data were processed

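The deposited tables hold read counts per gene for 91 libraries. Per the submitters' processing notes, the authors used cutadapt, FastQC, HTSeq and DESeq2 with the ce10 genome, no versions given. No source used here gives the aligner, the annotation or the use of strand. Per the labels' protocols, small RNA kits were NEBNext or TruSeq and mRNA was made into libraries with Nextera XT.

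The HTSeq lines for reads outside genes (17.3 to 71.4% in no gene, 1.33 to 20.4% not aligned) were left out of totals and tests. No library was a copy of another. Counts were tested with edgeR 4.0.16 (R 4.3.3): filterByExpr, TMM, robust quasi-likelihood test with Benjamini-Hochberg adjusted p-values over all genes tested in a comparison, threshold 0.05. The code was tested on simulated data. Groups follow the labels; the pigEx9 fit has the record set as a term, inferred from listing and label wording. The fits scale CPM separately from the levels printed.

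Replicate numbers pair the samples for N2 and pigSi3 against rde-4 at 20 °C, since every same-numbered pair deviated together (r 0.102 to 0.384 and 0.125 to 0.312). Alternatives were RLE factors, library totals, DESeq2 1.42.0, no filter, other mutant libraries, a replicate block and leaving out each replicate; 2 fits on pigEx9 P0 and rde-4 replicates 4 to 6 were added after seeing the data. The 7 genes and the gene lists were chosen with earlier results of these data known. Named besides them are rde-4, the 3 genes most like each member, and list genes past the threshold; those named in P0 were chosen after their values were seen. No sequence or coordinate is given, as the reference table has another build (WBcel235) than the files.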

Additional observations from a re-analysis of the deposited data

Results flagged for a closer look

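W03C9.6 moved in opposite directions in whole animals and in neurons, and the difference itself was not tested. Its small RNA mean was 66.6 CPM in N2 at 20 °C and 321 CPM in N2 at 25 °C, with every N2 library above the rde-4 libraries of its set, and 59.3 CPM in WT neurons, with both libraries below both rde-4 ones. Neither side was stable. Against all 11 mutants the N2 value at 20 °C was log2 0.45 (edgeR adjusted p = 0.626). The call at 25 °C was lost without any one N2 library, and the neuron call rested on 2 libraries a group.

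Gonads of sid-1 mutants, which entered no comparison, lay above all 3 rde-4 gonad libraries for some of the genes. In sid-1(qt9);rde-4 the lowest library had 439 CPM of C46G7.5 and 40.4 CPM of asah-1, and in pigSi3 with sid-1(qt9) 309 CPM of C46G7.5, 26.6 CPM of asah-1 and 150 CPM of kal-1. The highest rde-4 gonad library had 107 CPM of C46G7.5, 24.2 CPM of asah-1 and 112 CPM of kal-1. Only a higher level was looked for, and the share of all genes above in this way was not computed for these groups. In pigSi3 gonads, also 2 libraries against 3, it was 21.8% of 11517 genes, so nothing is read from this.

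Of 33 sets of 4 to 6 libraries examined, 3 held a library far from the others, and chance flags about 1 in 20. All were neuron mRNA: ZK1010.5 in WT replicate 2 (0.36 CPM), and kal-1 (41.7 CPM) and C46G7.5 (0.36 CPM) in pigSi3 replicate 4. These are few reads for ZK1010.5 and C46G7.5.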

How the results depend on the processing

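Over 15 comparisons, edgeR called 12 of 95 member values. Of 1350 member values recomputed under alternatives, pigEx9 included, 28 passed newly, 19 were lost and 1296 were counted as unchanged. The other 7, all in pigEx9, moved by at least the larger SD of their groups, with no threshold used there. No value called in either fit reversed, and none did in pigEx9. A change of direction with no call in either fit counted as unchanged. For asah-1 in N2 at 20 °C, leaving out replicates gave log2 -0.18 to 1.06. With a replicate block, no member call changed where the numbers pair the samples (genes called 6014 and 1554, against 4016 and 750 without it, for N2 and pigSi3 at 20 °C). In the other comparisons that share numbers they do not pair the samples (same-numbered r -0.125 to -0.0275 for pigSi3 F3 whole animals and rde-4 replicates 1 to 3, -0.288 to 0.043 for pigEx9 P0 and rde-4 replicates 4 to 6). There the block gave 0 members called in pigSi3 gonad small RNA (1 without it) and lost ZK1010.5 in N2 at 25 °C (adjusted p = 0.0735). In pigSi3 F3 whole animals against rde-4 replicates 1 to 3 alone, 1 member was called with the block (F32B5.3, 1.48, adjusted p = 0.0258; 291 genes) and 0 without it (F32B5.3, 1.49, adjusted p = 0.105; 0 genes). In pigEx9, P0 and rde-4 replicates 4 to 6 alone, which lie partly in different record sets and were chosen for this after seeing the data, gave 79 genes with the block and 112 without it. For pigEx9 F1 and F3 and for pigEx10 no paired analysis was possible because they share no replicate number with their mutants.

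Genes called in pigEx9 F1 (12) became 53 with DESeq2, 27 against all 11 mutants, 19 with F1 replicate 3, 20 with no filter, 273 in the first record set alone and 0 with no set term. In F3 (3) these were 42 with DESeq2, 21 against all 11 mutants, 6 with F1 replicate 3, 180 in the first set alone, 0 with no set term and 5 with library totals. In P0 (684) the first set alone gave 1176 and no set term 247. Members called with DESeq2 were 2 in pigEx10 P0, F1 and F3 each, 2 in pigSi3 at 20 °C, 5 in N2 at 25 °C (4 by edgeR), 1 in pigSi3 F3 gonad small RNA, 3 in pigSi3 gonad small RNA and 1 in pigSi3 gonad mRNA. Over all genes DESeq2 called 1037 of 12800 in pigSi3 at 20 °C and 2261 of 10524 in N2 at 25 °C, and its other counts are given below. No filter gave 1 in each pigEx10 generation, and nothing is read from this, since no count of all genes is given here. Library totals gave 1 in pigEx10 P0, 5 in N2 at 25 °C and 2 in pigSi3 gonad small RNA, beside 208, 1901 and 275 of all genes.

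Leaving out single replicates gave 1 to 5 genes in pigEx9 F3 and 462 to 947 in P0. Members called were 2 to 5 in N2 at 25 °C and 0 to 1 in pigEx10 P0, beside 815 to 2084 and 123 to 184 of all genes. In pigEx9 F1 and in neuron and gonad small RNA such fits can leave 1 library in a group, and counts are not given here. Calls in WT neuron and pigSi3 gonad small RNA were lost in such fits. In pigSi3 F3 gonad small RNA without F3 replicate 1, the log2 difference was 2.55 for C46G7.5 and 1.55 for W03C9.6. Where 1 library is left in a group, it is assumed to vary like the others. With TMM the median log2 difference of all genes was 0.00152 in N2 at 20 °C and 0.00476 and 0.000726 in F3 gonad mRNA and small RNA. It was 0.166 and -0.0386 in WT and pigSi3 neuron mRNA. With library totals the median was -0.248 in N2 at 20 °C (618 genes higher and 3886 lower, against 1857 and 2159). It was then 0.186 and -0.184 in F3 gonad mRNA and small RNA, and 0.492 and 0.163 in WT and pigSi3 neuron mRNA. Splits there were 2072 and 1052, against 1434 and 1527, in F3 gonad mRNA and 40 and 24, against 23 and 32, in WT neuron mRNA. Over all genes, DESeq2 called 349, 145 and 128 in pigEx10 P0, F1 and F3 (202, 40 and 40 by edgeR), 129 in pigSi3 F3 whole animals (2), 516 and 427 in pigSi3 and F3 gonad small RNA (228 and 19), and 807, 133 and 109 in WT neuron, pigSi3 neuron and pigSi3 gonad mRNA (55, 3 and 51). Against all 11 mutants pigEx10 gave 664, 3 and 2, and pigSi3 at 20 °C 457. The block gave 101 and 2 in pigSi3 and F3 gonad small RNA and 26 in WT neuron mRNA. The causes were not tested. With log2(CPM + 5) in place of log2(CPM + 1), 18 of the 21 genes named as most like a member were the same. Neuron small RNA (735328 to 2530023 gene counts) limits what could be seen of ZK1010.5 and F32B5.3.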
